A study of Homo sapiens with 24 samples.

Results

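The DNAJ genes, also called HSP40 genes, encode the J-domain co-chaperones of the HSP70 machinery. They were followed here in the cell line 22Rv1, derived from a human prostate carcinoma. Members were taken as every protein-coding gene whose symbol is DNAJA, DNAJB or DNAJC followed by a number, and no measured value entered that choice. The rule found 44 genes among the 60232 genes of the table, of which 4 belong to class A, 12 to class B and 28 to class C. Messenger RNA was measured by RNA sequencing in 3 groups of 3 libraries each, labelled as biological triplicates at 3 h: cells given the vehicle DMSO, cells given KB02 and cells given KB05. The compounds are named in the labels by these codes only. Both were used at 200 µM for 1 h before 2 h in fresh medium. The headings of the deposited counts read 2 h for every library, DMSO included, where the sample titles read 3 h. Here the 2 h was taken to be the time after exposure. All groups share the single parental line, so the results describe 1 cell line. A further 15 samples of the series, taken at 8 h, were not analysed here.

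A J protein carries a conserved J domain that binds an HSP70 and stimulates its ATP hydrolysis, which locks a client protein onto the HSP70. Class A proteins keep the glycine/phenylalanine-rich region and the zinc-finger region of bacterial DnaJ, class B proteins lack the zinc finger, and class C proteins share the J domain alone. The members sit in different compartments, where they steer HSP70 proteins to folding, disaggregation, endoplasmic reticulum (ER) quality control, mitochondrial import, clathrin uncoating or work at the ribosome. Several cytosolic members, DNAJB1 foremost, are classical targets of heat shock factor 1 (HSF1). Several ER members, such as DNAJB9, DNAJB11, DNAJC3 and DNAJC10, are known targets of the unfolded protein response.

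Total counts per library ran from 15507130 to 21900671, and the 44 members took between 0.186% and 0.413% of them. Levels below are CPM, read counts rescaled to a common effective library size with TMM factors. A count of 3 corresponds to 0.129 to 0.195 CPM, which covers counting error only. The 7 prostate luminal markers KLK2, KLK3, TMPRSS2, FOLH1, EPCAM, KRT8 and KRT18 were all expressed, and their summed level was 2159 to 2517 CPM with DMSO, 1855 to 1966 CPM with KB02 and 2536 to 2628 CPM with KB05. The 3 basal markers (TP63, KRT5 and KRT14) summed to at most 0.333 CPM in any library, the 3 endothelial markers to at most 0.729 CPM with CDH5 at 0 in all 9 libraries. The 4 fibroblast and muscle markers summed to 16.6 to 19.1 CPM with DMSO, 22.9 to 30.0 CPM with KB02 and 21.4 to 24.3 CPM with KB05. The 4 blood cell markers lay between 14.5 and 28.6 CPM in sum, and 1 of them, CD14, rose from 0.541 ± 0.249 CPM with DMSO to 8.80 ± 2.62 CPM with KB02 and was at 0.397 ± 0.269 CPM with KB05 (SD, n = 3 each). The part of any marker in the results below was not tested. In bulk RNA, fewer cells of a type and less RNA per cell cannot be told apart, and p-values measure the spread between these libraries.

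In vehicle-treated cells the family spanned a wide range of levels. Compared per kilobase of the principal transcript, DNAJA1 was the most abundant at 88.0 CPM per kb, followed by the ER member DNAJB11 at 77.1, then DNAJB6 at 46.9, DNAJC19 at 46.8, DNAJC8 at 44.7 and DNAJB1 at 37.7 CPM per kb. DNAJB6, DNAJC19 and DNAJC8 stood close together in this order. At the low end stood DNAJC27 at 0.713, DNAJC28 at 0.501 and DNAJC15 at 0.0931 CPM per kb. A level per kilobase depends on the transcript chosen: DNAJC10, at 6.36 CPM per kb, was divided by an annotated length of 20129 bases. DNAJB7, DNAJB8, DNAJB13, DNAJC5B and DNAJC5G had between 1 and 55 counts each over the 9 libraries and did not pass the filter on low counts. The other 39 members were tested: all 4 of class A, 9 of class B and 26 of class C.

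The summed level of the family was higher with both compounds, and most of the added RNA came from DNAJB1 and DNAJA1. The sum was 2089.9, 1966 and 1985 CPM in the DMSO libraries, 3236, 3204 and 2951 CPM with KB02, and 3671, 3908 and 4297 CPM with KB05. The 3 groups did not overlap. DNAJB1 alone made up 4.24% ± 0.247 of the family's counts with DMSO, 25% ± 1.08 with KB02 and 37.8% ± 3.17 with KB05 (SD, n = 3 each). DNAJA1 made up 10.4% ± 0.681, 20.5% ± 0.252 and 13.5% ± 0.551, so it was the second contributor and its share was largest with KB02. Without these genes the sum was 1719 ± 63.0 CPM with DMSO and 1704 ± 46.6 CPM with KB02, whose libraries overlapped, and 1917 ± 14.0 CPM with KB05, above both. By class, the sum of class A went from 347 ± 13.4 CPM to 848 ± 53.5 with KB02 and 828 ± 76.7 with KB05. Class B went from 541 ± 25.4 CPM to 1271 ± 80.5 and 2060.2 ± 249. Class C went from 1125 ± 34.9 CPM to 1012 ± 23.4 with KB02 and 1069.8 ± 9.17 with KB05, the only class whose mean sum was below DMSO with both compounds. All these sums rest on TMM scaling. Whether the small class C differences hold under another scaling was not tested.

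**Figure D1:**
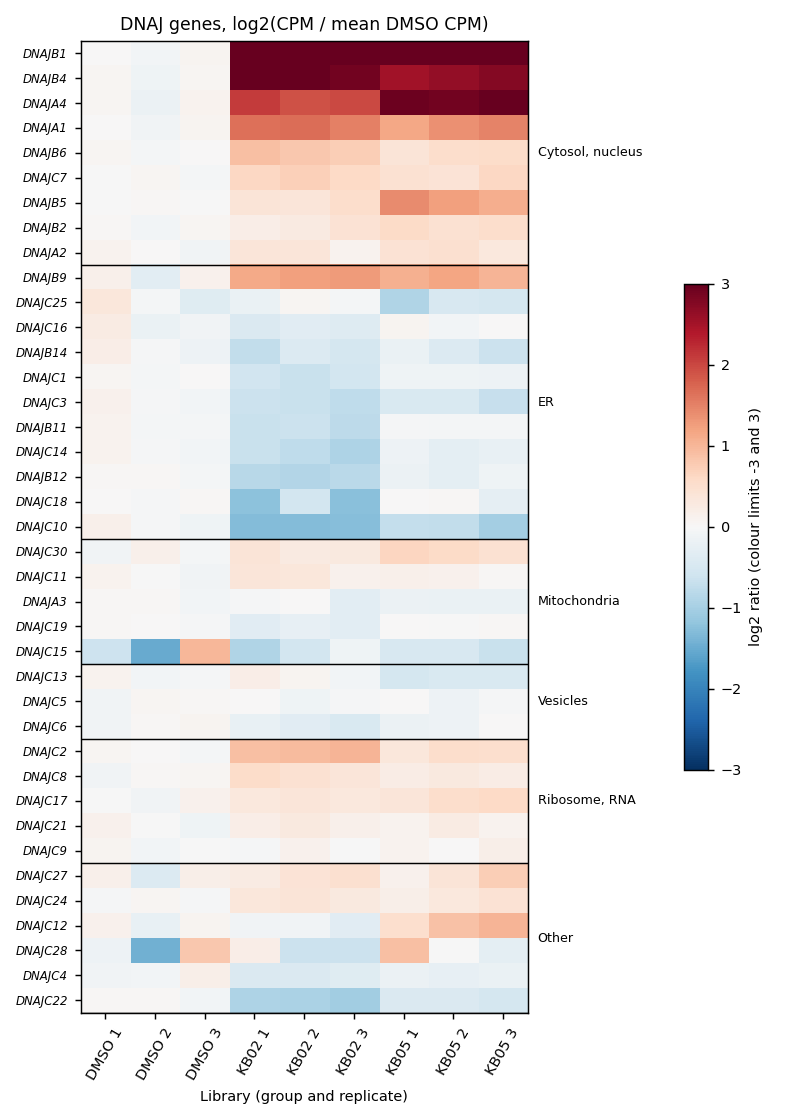
Level of each of the 39 tested DNAJ genes (rows, grouped by compartment) in each of the 9 libraries (columns) as log2 of CPM over the mean CPM of the 3 DMSO libraries and shown on a fixed colour scale. The cytosolic and nuclear block is red in nearly every treated library, while the endoplasmic reticulum block is mostly blue with KB02 and mostly paler with KB05; DNAJB9 is red with both compounds, and DNAJC25 is pale with KB02 and blue with KB05.

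Each compound was then compared with DMSO, gene by gene, with edgeR's quasi-likelihood test fitted to all genes and Benjamini-Hochberg adjustment at a threshold of 0.05. A member is said to have risen or fallen only where it passed this test. Both comparisons use the same 3 DMSO libraries. With KB02, 17 of the 39 tested members rose and 12 fell, 74.4% in all. Among all 18379 genes tested, 46.1% were called with KB02, 22.8% as higher and 23.3% as lower. With KB05, 16 members rose and 8 fell, 61.5% in all. The background for KB05 was 39.8% of all genes called, 18.7% higher and 21.1% lower. The median log2 fold change of the members was 0.03 with KB02 and 0.11 with KB05, against 0.00 and -0.00 over all genes. Because the comparisons share their controls, the calls are given side by side and their overlap is not read as a result. No call was made with either compound for 7 members: DNAJA3, DNAJC5, DNAJC6, DNAJC9, DNAJC15, DNAJC27 and DNAJC28.

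The classes were compared by the counts and medians of their members, beside the shares over all genes given above. In class A, 3 of 4 members rose and none fell with either compound, with median log2 fold changes of 0.95 for KB02 and 0.88 for KB05. DNAJA3, the mitochondrial member of the class, was the one not called. In class B, 6 of 9 members rose with each compound, while 3 fell with KB02 and 2 with KB05, and the medians were 0.42 and 0.52. Class C was divided: 8 of 26 members rose and 9 fell with KB02 (median -0.12), and 7 rose and 6 fell with KB05 (median 0.00). When libraries were scaled by total count alone, the median of all genes moved to 0.13 with KB02 and that of class C to 0.01, so the sign of the class C median depends on the scaling. Every change of at least 2-fold upward was in class A or B, and the only called fall of that size was DNAJC10 of class C with KB02.

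Grouped by compartment, the cytosolic members rose with each compound, while most ER members fell with KB02 and fewer did with KB05. All 9 tested members assigned to the cytosol and nucleus rose with both compounds, with a median log2 fold change of 0.81 for KB02 and 1.25 for KB05. Of the 11 ER members, 1 rose and 9 fell with KB02 (median -0.70), and 1 rose, 5 fell and 5 were not called with KB05 (median -0.19). Over all genes tested, 22.8% rose and 23.3% fell with KB02, and 18.7% rose and 21.1% fell with KB05. The compartments were assigned by hand from textbook knowledge, with earlier results of these data known, so these counts describe the groups and are not a test of them.

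DNAJB1 (ENSG00000132002.9, chr19:14514770-14529770, minus strand), the main class B partner of cytosolic HSP70 in protein disaggregation, showed the largest change. Its level was 86.0, 80.0 and 89.7 CPM in the DMSO libraries, 839.5, 812 and 702 CPM with KB02, and 1283, 1461 and 1773 CPM with KB05. Every treated library lay far above every DMSO library, and every KB05 library lay above every KB02 library. The rise was 9.21-fold with KB02 (log2 fold change 3.20 ± 0.11 SE, adjusted p = 8.7e-13) and 17.7-fold with KB05 (4.14 ± 0.12, adjusted p = 1.91e-13). An opposite-strand neighbour, TECR, shares 5.75% of the exon bases of DNAJB1. Its log2 fold change was -0.94 with KB02 and -0.21 with KB05, opposite in sign to that of DNAJB1.

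DNAJA4 and DNAJB4 followed DNAJB1 in size. DNAJA4 (chr15:78264086-78282196, plus strand), a class A co-chaperone with low basal level, was at 20.1, 17.2 and 20.9 CPM with DMSO, 82.7, 73.4 and 76.3 CPM with KB02, and 148, 144 and 188 CPM with KB05. It rose 4-fold with KB02 and 8.28-fold with KB05 (log2 fold changes 2.00 ± 0.10 and 3.05 ± 0.10), with no overlap between any groups. DNAJB4 (chr1:77979175-78017964, plus strand), a close relative of DNAJB1, was at 7.04, 6.25 and 7.05 CPM with DMSO, 58.0, 58.2 and 50.7 CPM with KB02, and 38.7, 41.9 and 45.4 CPM with KB05. It rose 8.22-fold and 6.19-fold (3.04 ± 0.10 and 2.63 ± 0.10), so that here the KB02 libraries were the highest. DNAJA1 (chr9:33025211-33039907, plus strand), the abundant class A partner of HSPA8, was at 213, 195 and 222 CPM with DMSO, 663, 666 and 598 CPM with KB02, and 472, 543 and 592 CPM with KB05. Its rise of 3.06-fold with KB02 and 2.56-fold with KB05 (1.62 ± 0.08 and 1.35 ± 0.08) started from a level above that of any other cytosolic member, in CPM and per kilobase.

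The remaining cytosolic members rose less. DNAJB5, another relative of DNAJB1, was at 9.53, 9.81 and 9.54 CPM with DMSO, 12.5, 12.4 and 13.9 CPM with KB02, and 25.7, 22.6 and 20.5 CPM with KB05. The rise was 1.34-fold with KB02 (0.42 ± 0.12) and 2.38-fold with KB05 (1.25 ± 0.11). DNAJB6, a suppressor of polyglutamine aggregation, showed the other order: 78.2, 72.5 and 75.9 CPM with DMSO, 141, 132 and 125 CPM with KB02, and 98.8, 109 and 110.3 CPM with KB05 (log2 fold changes 0.81 ± 0.07 and 0.49 ± 0.07). DNAJB2, which binds ubiquitylated clients and is best known from neurons, went from 51.3, 47.0 and 51.9 CPM to 57.7, 60 and 67.7 CPM with KB02 and 74.3, 69.2 and 72.1 CPM with KB05 (0.30 ± 0.08 and 0.52 ± 0.08). DNAJC7, a tetratricopeptide repeat protein that binds both HSP70 and HSP90, rose by 0.64 ± 0.08 and 0.50 ± 0.08 on the log2 scale. On the opposite strand, CNP shares 4.28% of the exon bases of DNAJC7 and NKIRAS2 shares 5.16%. Their log2 fold changes, 0.36 and 0.29 with KB02 and 0.21 and 0.14 with KB05, were in the same direction. DNAJA2, the second constitutive class A protein of the cytosol, rose by 0.28 ± 0.08 and 0.41 ± 0.08. All 18 of these calls, 9 members with each compound, kept their direction and passed the threshold under all 16 alternative settings.

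**Figure D2:**
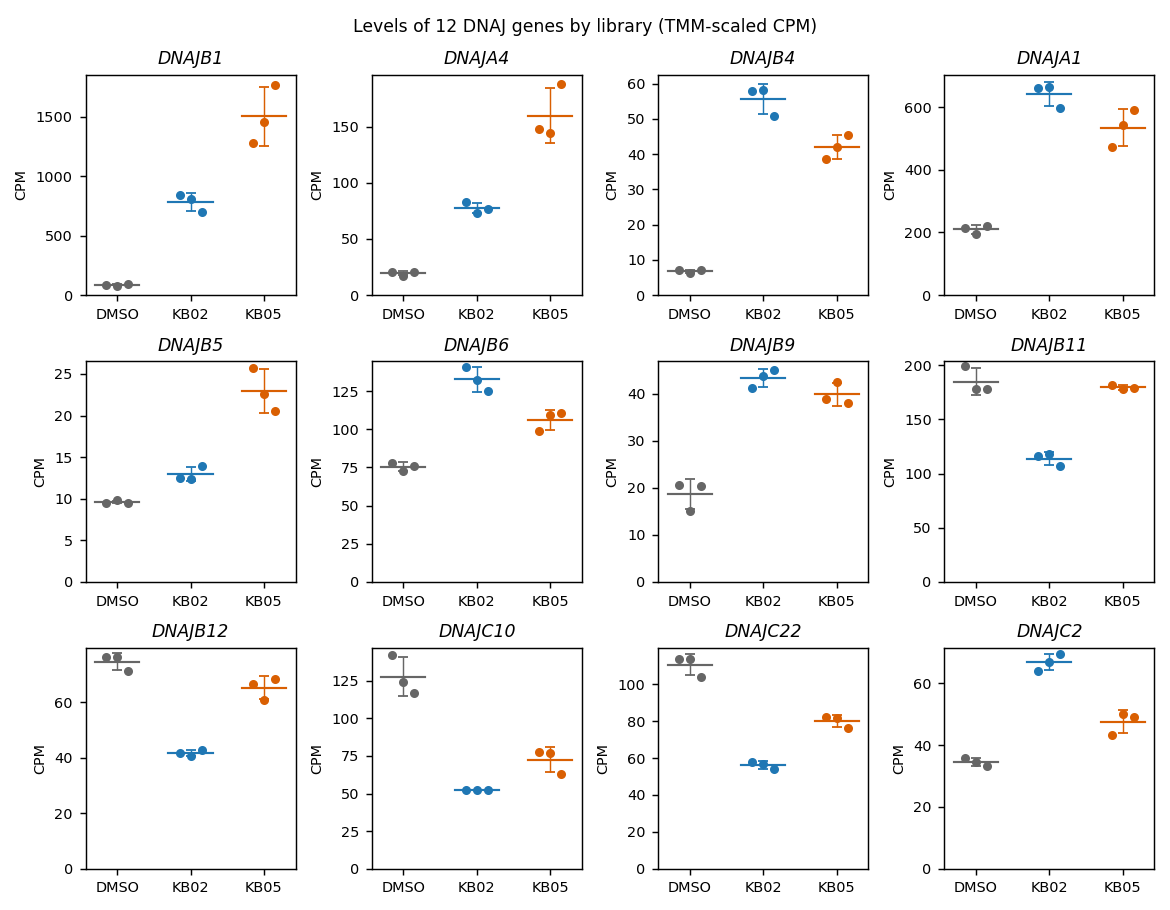
TMM-scaled CPM of 12 DNAJ genes in each library (points), with the group mean (horizontal line) and SD (bars, n = 3), on linear axes that start at 0. In DNAJB1, DNAJA4 and DNAJB5 the KB05 libraries stand highest, in DNAJB4, DNAJA1, DNAJB6 and DNAJC2 the KB02 libraries do, and in DNAJB11, DNAJB12, DNAJC10 and DNAJC22 the KB02 libraries stand lowest.

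Because several cytosolic members are classical heat shock genes, the promoters of the family were searched for heat shock element letters, the inverted GAA and TTC units to which HSF1 binds. Promoters were taken from RefSeq (GRCh38.p14), as 250 bases before to 50 bases after each annotated start, and 40 of the 44 members had an entry. DNAJC1, DNAJC5B, DNAJC22 and DNAJC24 had none. A pair of units, GAANNTTC or TTCNNGAA, read on both strands and allowed to overlap, was found in 8 members (20%), against 16.2% of 27305 genes in the table and 14.0% of 11481 tested coding genes. Of the 9 tested cytosolic members, 5 held such a pair (DNAJA1, DNAJA4, DNAJB1, DNAJB4 and DNAJB6), and of the 10 ER members with an entry, 0 did. The other members with a pair were DNAJB7, which was too low to be tested, and DNAJC6 and DNAJC15, which were called with neither compound. Genes with several listed starts had more bases searched. The cytosolic and ER groups were drawn up by hand with earlier results of these data known. The difference between their counts was not tested. The stretches upstream of the start that hold these letters are printed below for the 5 cytosolic members where they lie outside annotated exons, 5′ to 3′ on the strand of the gene, with the elements in capitals. DNAJB1 is shown from chr19:14518421-14518499 (minus strand), DNAJA4 from chr15:78264446-78264542 (plus), DNAJA1 from chr9:33025050-33025107 (plus), DNAJB4 from chr1:78004816-78004853 (plus) and DNAJB6 from chr7:157336848-157336910 (plus).
DNAJB1: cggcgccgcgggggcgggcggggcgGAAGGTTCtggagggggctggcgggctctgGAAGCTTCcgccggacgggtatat
DNAJA4: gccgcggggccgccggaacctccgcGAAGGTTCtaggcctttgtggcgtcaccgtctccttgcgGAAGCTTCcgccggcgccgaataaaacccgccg
DNAJA1: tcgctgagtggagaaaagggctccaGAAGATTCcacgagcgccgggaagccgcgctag
DNAJB4: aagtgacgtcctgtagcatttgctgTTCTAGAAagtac
DNAJB6: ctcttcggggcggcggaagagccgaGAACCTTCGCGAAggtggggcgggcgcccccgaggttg

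In the stretches printed, DNAJB1 and DNAJA4 carry the same 2 elements, GAAGGTTC and then GAAGCTTC. In DNAJB1 they lie at -77 to -70 and -47 to -40 from the start, and in DNAJA4 at -91 to -84 and -52 to -45. A further pair of DNAJB1 lies at 2 to 9 from another of its listed starts. DNAJB4 holds a single pair in the other orientation at -98 to -91, and DNAJA1 a pair at -198 to -191. A run of 3 alternating units, each 2 bases apart, was found in DNAJB6 at -131 to -119 and in DNAJA1 at 4 to 16, within its transcribed part, and in no other member. That longer form was present in 0.608% of the genes in the table and in 0.479% of tested coding genes. DNAJB5, DNAJB2, DNAJC7 and DNAJA2, which also rose, held neither form in the bases searched. Among them, DNAJB5 and DNAJB2 were higher with KB05 than with KB02, as DNAJB1 and DNAJA4 were. DNAJB4, DNAJB6 and DNAJA1, which hold the letters, were lower with KB05 than with KB02. The DNAJB2 and DNAJA1 differences did not hold under every alternative setting. Whether the letters bear on the order of the compounds was not tested. The ER stress element, CCAAT and CCACG separated by 9 bases, was found in no member and in 0.0916% of the genes in the table. Letters of an element describe a sequence and do not show that a factor binds it.

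**Figure D3:**
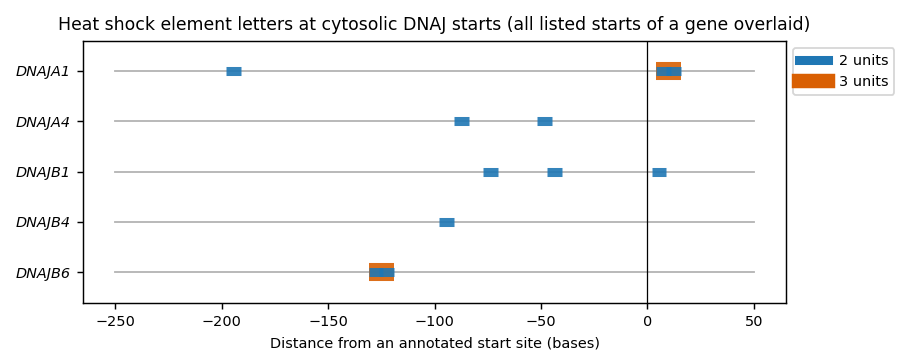
Position of heat shock element letters along the promoters of 5 cytosolic DNAJ genes, in bases from an annotated start (vertical line at 0), with pairs of units in blue and runs of 3 units in orange; all listed starts of a gene are overlaid on 1 line. DNAJA4 and DNAJB1 each hold 2 pairs within 100 bases before the start, and DNAJA1 and DNAJB6 hold a run of 3 units.

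Of the 11 ER members, 9 fell with KB02 and 5 with KB05, and DNAJB9 was the only one that rose with either compound. DNAJB9 (chr7:108569568-108574850, plus strand), also called ERdj4, assists the chaperone BiP and is induced by the unfolded protein response. It was at 20.7, 15 and 20.5 CPM with DMSO, 41.2, 43.9 and 45.1 CPM with KB02, and 39.0, 42.6 and 38.1 CPM with KB05. The rise was 2.32-fold and 2.13-fold (log2 fold changes 1.21 ± 0.10 and 1.09 ± 0.10), with all treated libraries above all DMSO libraries. Opposite-strand neighbours share part of its exons, PNPLA8 3.49% and THAP5 6.45%, with log2 fold changes of 0.59 and 0.27 for KB02 and 0.04 and 0.01 for KB05.

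The other unfolded protein response members did not rise with DNAJB9. DNAJC10 (ERdj5, chr2:182716041-182794464, plus strand), a disulfide reductase of ER-associated degradation, was at 142, 124 and 117 CPM with DMSO, 52.3, 52.2 and 52.5 CPM with KB02, and 77.8, 77.2 and 62.7 CPM with KB05. It fell by 1.29 ± 0.08 on the log2 scale with KB02 and by 0.82 ± 0.08 with KB05 (edgeR adjusted p = 1.44e-13 and 4.66e-09), and no groups overlapped. DNAJC3 (p58IPK), an inhibitor of the stress kinase PERK and a BiP co-chaperone, was at 113, 102 and 98.0 CPM with DMSO, 66.1, 65.5 and 61.2 CPM with KB02, and 75.8, 76.2 and 64.4 CPM with KB05. It fell by 0.70 ± 0.08 and 0.53 ± 0.08 on the log2 scale, and its KB02 and KB05 libraries overlapped. DNAJB11 (ERdj3, chr3:186567403-186585800, plus strand), a soluble BiP co-chaperone that is also secreted, was at 199, 178 and 178 CPM with DMSO, 116, 118 and 107 CPM with KB02, and 182, 178 and 179 CPM with KB05. It fell by 0.70 ± 0.07 with KB02, while with KB05 its log2 fold change was -0.04, with a 95% interval of -0.18 to 0.10, and the libraries overlapped those of DMSO. On the same strand, AC068631.2 shares 7.87% of the exon bases of DNAJB11, with log2 fold changes of -0.76 and 0.06, neither called. On the opposite strand, TBCCD1 shares 6.65%, with 0.84 and 0.49, and the low-level gene AC068631.1 shares 8.65%.

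DNAJB12 and its paralogue DNAJB14, which are anchored in the ER membrane, present membrane proteins to cytosolic HSC70 for degradation. DNAJB12 was at 76.2, 76.4 and 71.2 CPM with DMSO, 41.7, 40.5 and 42.9 CPM with KB02, and 66.5, 60.8 and 68.5 CPM with KB05. It fell by 0.84 ± 0.07 with KB02 and by 0.19 ± 0.07 with KB05. The latter call (adjusted p = 0.0346) passed the threshold in 9 of 16 alternatives, whose adjusted p ran from 0.0207 to 0.184, and was lost without DMSO replicate 1 or 2 and without KB05 replicate 1 or 2. DNAJB14 fell by 0.56 ± 0.11 and 0.40 ± 0.11; its call with KB05 (adjusted p = 0.00822) was lost in 2 alternatives, without DMSO replicate 1 or KB05 replicate 3, with a range of 0.000155 to 0.0528 over the 16.

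DNAJC18, a relative of DNAJB12 at a much lower level, was at 4.87, 4.70 and 4.98 CPM with DMSO, 2.07, 3.29 and 2.05 CPM with KB02, and 4.85, 5.01 and 4.02 CPM with KB05. The KB02 libraries lay below all others, a fall of 0.97 ± 0.21 on the log2 scale, while the log2 fold change with KB05 was -0.07 with a 95% interval of -0.48 to 0.34. DNAJC14, an ER membrane protein, was at 39.3, 35.9 and 34.7 CPM with DMSO, 23.1, 21.7 and 19.3 CPM with KB02, and 33.0, 30.0 and 31.6 CPM with KB05. It fell by 0.77 ± 0.09 with KB02; with KB05 its log2 fold change of -0.22 ± 0.09 missed the threshold at an adjusted p of 0.0508, and 5 of 16 alternatives called it. ORMDL2, on the opposite strand, shares 21.9% of the exon bases of DNAJC14 and had log2 fold changes of -1.49 and -0.40, in the same direction. On the same strand the gene AC023055.1 shares 23.2%, with -0.01 and -0.79, neither called. The sources used here do not say whether counting used strand, so reads of the pair cannot be told apart.

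Of the other ER members, DNAJC1, which binds ribosomes and BiP, fell by 0.59 ± 0.07 with KB02 and had a log2 fold change of -0.14 ± 0.07 with KB05, which was not called. DNAJC16 fell by 0.39 ± 0.12 with KB02, a call lost without DMSO replicate 1 or KB02 replicate 1 and under scaling by total count (adjusted p of 0.00594, with a range of 0.00238 to 0.0898 over the alternatives), and its log2 fold change with KB05 was -0.00 ± 0.11. DNAJC25 showed another order: 17.1, 13 and 10.5 CPM with DMSO, 11.8, 14.0 and 12.9 CPM with KB02, and 7.24, 9.75 and 9.43 CPM with KB05. Its KB05 libraries were the lowest, a fall of 0.63 ± 0.16, while its log2 fold change with KB02 was -0.07 ± 0.15. The read-through gene DNAJC25-GNG10 shares 13.8% of its exon bases, so reads were divided between them by estimate; its own log2 fold changes were -0.55 and 0.03. Across the 11 ER members, the count of falls therefore ran from 9 with KB02 to 5 with KB05, and DNAJC10, DNAJC3, DNAJB12 and DNAJB14 fell with both.

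**Figure D4:**
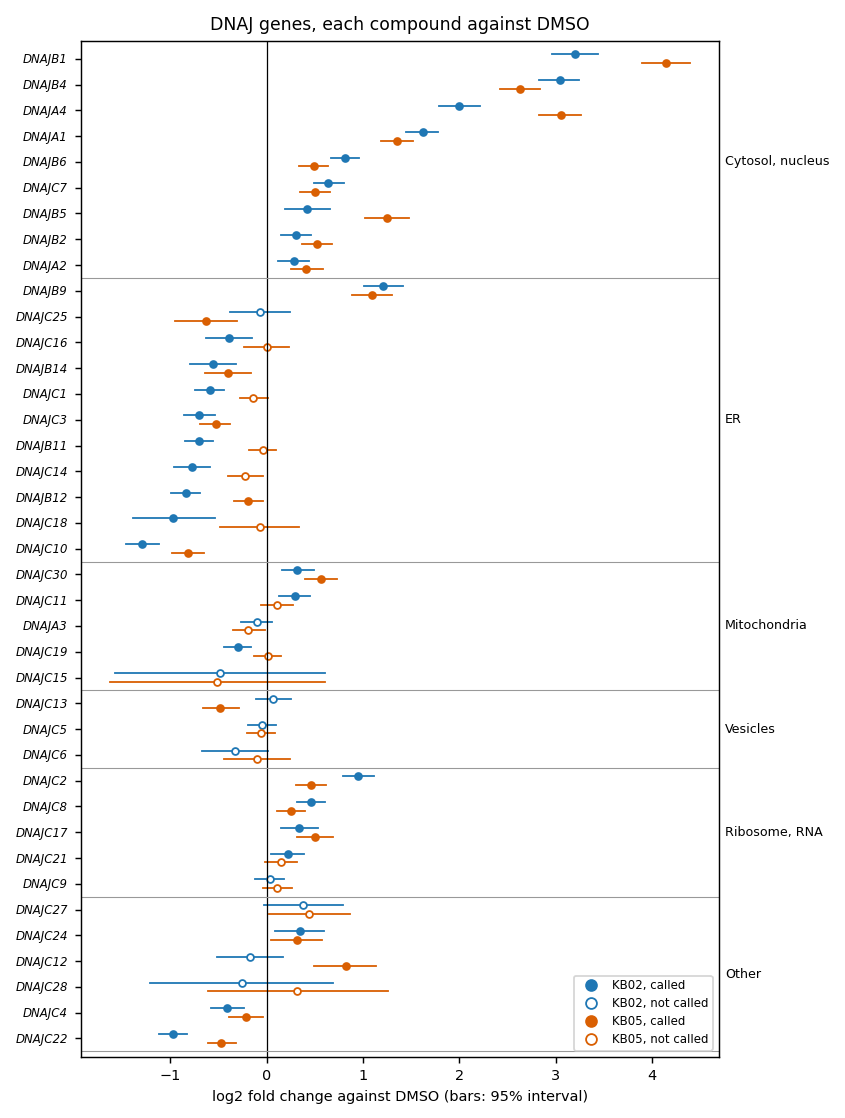
log2 fold change of each of the 39 tested DNAJ genes against DMSO, for KB02 (blue) and KB05 (orange), with 95% intervals; filled points passed the adjusted p threshold of 0.05 and open points did not. All points of the 9 cytosolic and nuclear members lie right of 0, and among the 11 ER members DNAJB9 alone has both points filled to the right.

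Of the 5 mitochondrial members, 2 rose and 1 fell with KB02, and 1 rose and none fell with KB05. The shares called over all genes tested were 46.1% with KB02 and 39.8% with KB05. Whether the group differs from these shares was not tested. DNAJC30, which acts with the ATP synthase and complex I, was at 37.0, 43.7 and 38.0 CPM with DMSO, 52.1, 47.8 and 48.8 CPM with KB02, and 61.6, 59.3 and 54.6 CPM with KB05, and rose by 0.32 ± 0.08 and 0.56 ± 0.08 on the log2 scale. Its opposite-strand neighbour BUD23 shares 14.4% of its exon bases and fell by 0.41 and 0.53. DNAJC11, an outer-membrane protein tied to cristae organisation, rose by 0.29 ± 0.08 with KB02 and had a log2 fold change of 0.11 ± 0.08 with KB05. THAP3, which shares 27.9% of the exon bases of DNAJC11 on the other strand, had log2 fold changes of 1.02 and 0.80. DNAJC19, a partner of the import motor, fell by 0.30 ± 0.07 with KB02, a call lost when libraries were scaled by total count alone (adjusted p = 0.0606 against 0.000673), and its log2 fold change with KB05 was 0.01 ± 0.07. DNAJA3 (Tid1), the co-chaperone of mitochondrial HSP70 in the matrix, had log2 fold changes of -0.10 ± 0.08 and -0.19 ± 0.08. DNAJC15 had 9, 5 and 24 counts in the DMSO libraries (0.258 to 1.46 CPM) and a wide 95% interval, -1.57 to 0.61 for KB02.

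Of the 3 tested vesicle members, none was called with KB02 and 1 (33.3%) fell with KB05. Over all genes tested, 46.1% were called with KB02 and 39.8% with KB05. DNAJC13 (RME-8), which acts in endosomal sorting, was at 34.0, 29.7 and 30.5 CPM with DMSO, 35.8, 33.1 and 29.9 CPM with KB02, and 21.8, 22.9 and 23.0 CPM with KB05, a fall of 0.48 ± 0.09 on the log2 scale. DNAJC5, the cysteine string protein of secretory vesicles, had log2 fold changes of -0.05 and -0.06, with 95% intervals of -0.19 to 0.10 and -0.20 to 0.09. DNAJC6 (auxilin), the uncoating factor of clathrin vesicles, had -0.33 ± 0.17 and -0.10 ± 0.17.

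Of the 5 members tied to the ribosome, RNA or chromatin, 4 rose with KB02 and 3 with KB05, and none fell. For comparison, 22.8% of all genes tested rose with KB02 and 18.7% with KB05, while 23.3% and 21.1% fell. This group was also drawn up by hand, and its difference from all genes was not tested. DNAJC2 (chr7:103312474-103344873, minus strand), part of the ribosome-associated complex that receives nascent chains, was at 35.9, 34.5 and 33.1 CPM with DMSO, 64.1, 67.0 and 69.4 CPM with KB02, and 43.4, 50.1 and 49.2 CPM with KB05. It rose 1.93-fold and 1.38-fold (0.95 ± 0.08 and 0.46 ± 0.08) with no overlap between groups; its opposite-strand neighbour PMPCB, which shares 9.57% of its exon bases, fell by 0.80 and 0.33. DNAJC8, a spliceosome-associated protein, rose by 0.46 ± 0.07 and 0.25 ± 0.07. DNAJC17, also linked to splicing, rose by 0.34 ± 0.09 and 0.50 ± 0.09. GCHFR shares 20.4% of the exon bases of DNAJC17 on the other strand and had log2 fold changes of -0.23 and -0.04. DNAJC21, a factor of the large ribosomal subunit's maturation, rose by 0.22 ± 0.08 with KB02, a call (adjusted p = 0.0339) that held in 12 of 16 alternatives. It was lost without DMSO replicate 3 or KB02 replicate 2, with no filter on low counts (0.0801) and with DESeq2 (0.0519), and the range over the 16 was 0.00193 to 0.205. DNAJC9, a histone chaperone that shares 24.0% of its exon bases with FAM149B1 on the other strand, was not called, at 0.03 ± 0.07 and 0.11 ± 0.07.

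The last 6 members have other roles or none stated here. DNAJC22 was at 114, 114 and 104 CPM with DMSO, 57.8, 57.0 and 53.9 CPM with KB02, and 82.3, 81.5 and 76.3 CPM with KB05, so the groups did not overlap, and it fell by 0.97 ± 0.07 and 0.47 ± 0.07. DNAJC12, which stabilises the aromatic amino acid hydroxylases, was the only member that rose with KB05 and was not called with KB02. Its levels were 6.19, 4.85 and 6.02 CPM with DMSO, 5.26, 5.31 and 4.49 CPM with KB02, and 8.13, 10.4 and 11.6 CPM with KB05. Its log2 fold change was 0.82 ± 0.16 with KB05 and -0.17 ± 0.17 with KB02. DNAJC4, which shares 10.6% of its exon bases with NUDT22 on the same strand, fell by 0.41 ± 0.09 and 0.21 ± 0.09. DNAJC24, which takes part in diphthamide synthesis, rose by 0.35 ± 0.12 and 0.31 ± 0.13. The KB05 calls of DNAJC4 and DNAJC24 (adjusted p = 0.0477 and 0.0482) each held in 5 of 16 alternatives, with ranges of 0.0245 to 0.316 and 0.0273 to 0.21; that of DNAJC4 was lost without DMSO replicate 3, without KB02 replicate 1 or 2, and without any 1 of the KB05 libraries, and that of DNAJC24 without any 1 of the DMSO libraries, without KB02 replicate 1 or 2, and without KB05 replicate 2 or 3. The KB02 call of DNAJC24 (adjusted p = 0.0216) held in 12 of 16 alternatives. It was lost without DMSO replicate 1 or 3, with no filter on low counts (0.0545) and with DESeq2 (0.051), with a range of 0.00224 to 0.0605. DNAJC27 (0.38 ± 0.20 and 0.44 ± 0.20) and DNAJC28 (-0.26 ± 0.46 and 0.32 ± 0.45) were not called.

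The compounds were next compared directly at the same dose and time, which tests the difference between them. Of the 39 tested members, 22 differed (56.4%), 15 higher and 7 lower with KB05, with a median log2 difference of 0.16. Among all genes tested 40.0% differed, 21.8% higher and 18.2% lower, with a median of 0.06. Scaled by total count alone, 12 members were higher and 9 lower, and the median of all genes moved to -0.06. In class A, 1 member was higher and 1 lower with KB05, in class B 5 and 2, and in class C 9 and 4. The class A median of 0.02 turned to -0.09 under scaling by total count.

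Within the cytosolic group the compounds ranked the members differently. DNAJA4 was 2.07-fold higher with KB05 than with KB02 (log2 1.05 ± 0.09, adjusted p = 7.47e-09), DNAJB1 1.92-fold (0.94 ± 0.10, adjusted p = 1.8e-06) and DNAJB5 1.78-fold (0.83 ± 0.11, adjusted p = 2.61e-07). DNAJB4 was 1.33-fold lower (-0.41 ± 0.08), DNAJB6 1.25-fold lower (-0.32 ± 0.07) and DNAJA1 1.2-fold lower (-0.26 ± 0.08). The DNAJA1 difference (adjusted p = 0.00709) was lost without KB05 replicate 1, where the adjusted p was 0.09, with a range of 0.000113 to 0.09 over the alternatives. DNAJB2 was higher by 0.22 ± 0.08, a call that held in 8 of 16 alternatives. It was lost without DMSO replicate 2, without KB02 replicate 1 or 2, without KB05 replicate 1 or 3, under scaling by total count, with only the 2 groups compared in the fit, and with DESeq2, with adjusted p of 0.00491 to 0.297 over the 16. DNAJC7 (-0.14, 95% interval -0.29 to 0.01) and DNAJA2 (0.13, -0.03 to 0.29) did not pass.

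In the ER, 7 of 11 members were higher and 1 lower with KB05 than with KB02, with a median of 0.46. The shares were 63.6% higher and 9.09% lower, against 21.8% and 18.2% of all genes tested. The differences were 0.90 ± 0.21 for DNAJC18, 0.66 ± 0.07 for DNAJB11 (adjusted p = 3.65e-09), 0.65 ± 0.07 for DNAJB12, 0.56 ± 0.09 for DNAJC14, 0.47 ± 0.08 for DNAJC10, 0.46 ± 0.07 for DNAJC1 and 0.39 ± 0.12 for DNAJC16. Each of these genes had fallen with KB02. The call of DNAJC16 was lost without KB02 replicate 1 (adjusted p = 0.0661 against 0.00782) and under scaling by total count (0.0744). DNAJB9, the member that rose, differed by -0.12 with a 95% interval of -0.31 to 0.07, and neither DNAJC3 (0.17, 0.01 to 0.32) nor DNAJB14 (0.16, -0.08 to 0.40) passed. DNAJC25 was lower by 0.56 ± 0.16, a call lost without KB05 replicate 1 (adjusted p = 0.0503 against 0.00573).

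Elsewhere the direct comparison singled out DNAJC12, 1.99-fold higher with KB05 (0.99 ± 0.16, adjusted p = 7.07e-06), DNAJC22, 1.42-fold higher (0.51 ± 0.07), and DNAJC19, higher by 0.31 ± 0.07. DNAJC13 was lower with KB05 by 0.55 ± 0.09 and DNAJC2 by 0.49 ± 0.08. DNAJC8 was lower by 0.21 ± 0.07 and DNAJC30 higher by 0.24 ± 0.08. The DNAJC8 call was lost without KB05 replicate 1 or 3 (adjusted p = 0.0617 and 0.0634). The DNAJC30 call (adjusted p = 0.0168) held in 9 of 16 alternatives, with a range of 0.01 to 0.26. It was lost without DMSO replicate 2, KB02 replicate 1 or 2, or KB05 replicate 1 or 2 (0.0518 to 0.174), under scaling by total count (0.26) and with DESeq2 (0.0633). For members not called, such as DNAJC5 (-0.01, 95% interval -0.15 to 0.14) and DNAJC9 (0.08, -0.07 to 0.22), the interval bounds the difference and does not show that the compounds act alike.

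**Figure D5:**
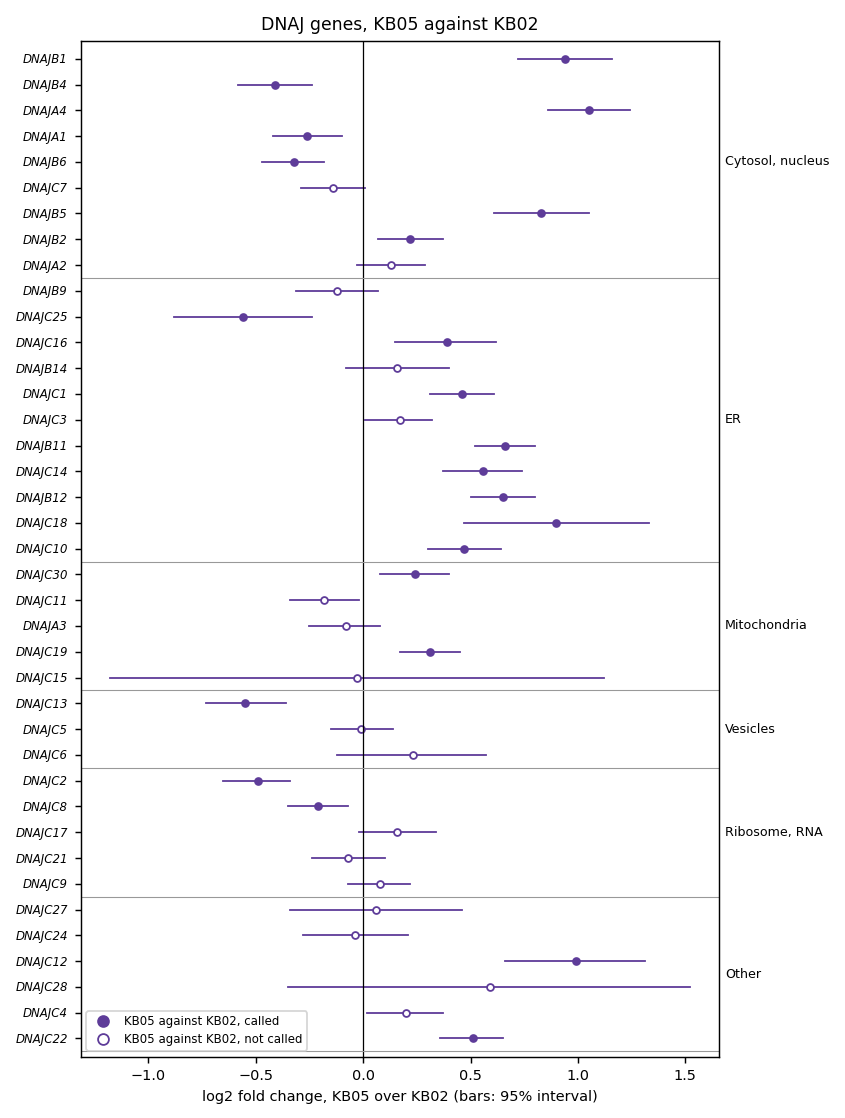
log2 fold change of each of the 39 tested DNAJ genes with KB05 over KB02, with 95% intervals; filled points passed the adjusted p threshold of 0.05. The cytosolic members split, with DNAJA4, DNAJB1 and DNAJB5 to the right of 0 and DNAJB4, DNAJB6 and DNAJA1 to the left, whereas 7 of the 11 ER members are filled to the right.

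The HSP70 genes whose products J proteins serve were counted next. Of 14 HSP70 and HSP110 genes, 11 rose and 2 fell with KB02, and 9 rose and 3 fell with KB05. The shares called were 92.9% and 85.7%, against 46.1% and 39.8% of all genes tested. The ER genes HSPA5 and HYOU1 fell with both. HSPA14, tied to the ribosome, rose by 0.37 ± 0.11 on the log2 scale with KB02 and fell by 0.57 ± 0.12 with KB05. The inducible cytosolic genes led: HSPA6 went from 4.12 ± 1.12 CPM to 80.6 ± 15.6 with KB02 and 892 ± 395 with KB05 (SD, n = 3 each; log2 fold changes 4.31 ± 0.47 and 7.77 ± 0.49). HSPA1A and HSPA1B, near-identical copies whose reads are split by estimate, had log2 fold changes of 4.30 and 3.48 with KB02 and 6.17 and 4.87 with KB05. HSPA5, which encodes BiP, the HSP70 of the ER that DNAJB9, DNAJB11, DNAJC3 and DNAJC10 assist, went from 2296 ± 179 CPM to 1017 ± 19.4 with KB02 and 1393 ± 109 with KB05, falls of 1.17 ± 0.07 and 0.72 ± 0.07 on the log2 scale.

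Among 11 nucleotide exchange factors and other HSP70 cofactors, 7 rose and 2 fell with KB02, and 8 rose and 1 fell with KB05. The share called was 81.8% with each compound, against 46.1% and 39.8% of all genes tested. BAG3, an exchange factor of cytosolic HSP70, rose from 42.3 ± 1.33 CPM to 218 ± 26.2 and 292 ± 60.8. GRPEL2, the mitochondrial exchange factor, rose by 0.81 ± 0.08 and 0.47 ± 0.08, and BAG2 by 0.58 ± 0.15 and 0.68 ± 0.16. SIL1, the exchange factor of BiP, fell by 1.19 ± 0.08 with KB02 and had a log2 fold change of -0.08 ± 0.08 with KB05. Among J proteins with other symbols, the ER translocation factor SEC63 fell with both compounds (-0.64 ± 0.08 and -0.56 ± 0.08) and the mitochondrial iron-sulfur co-chaperone HSCB rose with both (0.98 ± 0.09 and 0.59 ± 0.09). GAK, which acts in clathrin uncoating, was called with neither compound.

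Of the 6 regulators listed, HSF1 RNA was at 59.1 ± 3.48, 57.8 ± 0.599 and 59.6 ± 4.16 CPM with DMSO, KB02 and KB05, and neither it nor HSF2 nor ERN1 was called with either compound. ATF4, the transcription factor of the integrated stress response, rose by 1.09 ± 0.07 and 0.63 ± 0.07. ATF6, a sensor of the unfolded protein response, fell by 0.73 ± 0.08 and 0.36 ± 0.08. XBP1, whose spliced form drives DNAJB9 and other ER genes, fell by 0.57 ± 0.07 with KB02 and had a log2 fold change of 0.06 ± 0.07 with KB05. Gene counts do not separate its spliced from its unspliced RNA.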

How the data were processed

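The authors deposited estimated counts for each gene in 9 libraries (3 DMSO, 3 KB02, 3 KB05), unscaled. Salmon 1.3.0, DESeq2 1.30.1, hg38 and GRCh38.p13 are named in the submitters' processing notes. The sources used here do not give the annotation release or strand setting. Estimated counts, of which 20.3% to 24.3% per library were not whole, were rounded to whole numbers. Between replicates, chi-square per degree of freedom was 4.56 to 10.8, so all libraries were counted separately. In R 4.3.3, edgeR 4.0.16 kept genes by filterByExpr (minimum count 10), scaled by TMM and fitted a robust quasi-likelihood model to the 3 groups with no block. P-values were adjusted by Benjamini-Hochberg over 18379 genes (threshold 0.05). SE is the log2 fold change divided by the square root of F, and intervals are 95%. The steps were tested on simulated data. Alternatives were DESeq2 1.42.0, other scalings, no filter, pairs of groups, a replicate block and leaving out each library. Values by library are given for the called members with the largest changes and a mean of 1 log2 CPM or more (12 per compound, 8 between compounds), and for DNAJC13. From each partner list the 3 largest called are named. A few listed genes are not reported here. HSPA5, HSF1 and the other partner genes were named after their values were seen. Members and lists were chosen with earlier results of these data known. Genes and lengths come from GENCODE 29 on GRCh38. Protein sequences were not analysed here.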

Additional observations from a re-analysis of the deposited data

How the results depend on the processing

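The number of members called was 29 with KB02, 24 with KB05 and 22 between the compounds, and stayed within 1.5 times of these under all 16 alternatives. Leaving out 1 library gave 27 to 29, 21 to 26 and 17 to 24. DESeq2 gave 27, 22 and 20. With no filter the counts were 27, 21 and 22. Of the called members, 25 of 29, 20 of 24 and 16 of 22 were called under every alternative, and none changed sign. Deviations of same-numbered libraries correlated at -0.041 to 0.081, and those of differently numbered libraries at -0.066 to 0.039. With 3 libraries per group, these ranges cannot decide whether the replicate numbers pair the libraries. The replicate block gave 29, 24 and 23 calls, and with it DNAJC24 left and DNAJC14 joined the calls for KB05, and DNAJC11 joined those between compounds. Scaling by total count alone moved the share of calls that were higher, over all genes, from 49.5% to 63.8% with KB02 and from 54.4% to 37.4% between compounds; for members it moved from 58.6% to 64.3% and from 68.2% to 57.1%. Under that scaling the class medians with KB02 were 1.08 for A, 0.55 for B and 0.01 for C. DNAJC15 and DNAJC28, at 0.258 to 2.08 CPM, had the largest standard errors; how far counting or the spread between libraries set these was not tested.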
